A study of Homo sapiens with 2 samples.

Results

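Peaks of acetylated lysine 27 of histone H3 (H3K27ac) were described for the human histocompatibility region of chromosome 6, from 28.5 to 33.4 Mb in hg38, and for the alternate copies of chromosome 6 sequence that the hg38 build carries beside the primary chromosome. A peak was a member when it lay within these bounds or on a sequence named as a chromosome 6 alternate copy, so its level played no part in the choice. The ERG library held 240 such peaks of 19671 in all, 33 on the primary chromosome and 207 on alternate copies. The Vector library held 33 of 9161, 5 on the primary chromosome and 28 on alternate copies. Both libraries are from the human erythroid leukaemia cell line F36P. The cells of the ERG library carried the retroviral vector MSCV-PIG-AM-ERG, labelled as ERG overexpression. ERG is a transcription factor of the ETS family. The cells of the Vector library carried the empty vector MSCV-PIG and are labelled WT. Both were under puromycin selection at 1 µg/ml for 4 days. Each group was 1 library, so every difference compares these 2 libraries and not the conditions, no test between them was possible, and the intervals given cover counting error only.

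The histocompatibility region is among the most gene-dense and most variable stretches of the human genome. Its class I genes encode surface proteins that present peptides from inside the cell, with beta-2-microglobulin as their partner, and its class II genes encode the corresponding proteins of antigen-presenting cells. Between them lies class III, with complement, tumour necrosis factor and heat shock genes beside many genes used by every cell for RNA processing, protein synthesis and chromatin. H3K27ac marks active promoters and enhancers. Because haplotypes of this region differ so much, the build holds further versions of it as separate sequences, and a read from the region can match several of them.

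The peak lists give no read totals. From the fold and the −log10 p-value that the authors deposited for each peak, the number of fragments over its summit, its highest point, and the background expected there were worked out. Over the genome at large that background came to 2.31 fragments (ERG library) and 1.60 fragments (Vector library), a relative depth of 1.44. The erythroid label was checked on 9 marker genes, of which 8 had an ERG-library peak within 1 kb of a gene end and 7 a Vector-library peak there, GATA1, KLF1 and TAL1 among them. None of 3 fibroblast and 3 T cell markers had one in either library, and none of the 8 markers of antigen-presenting cells did (HLA-DRA, HLA-DRB1, HLA-DQA1, HLA-DQB1, HLA-DPA1, HLA-DPB1, CD74 and CIITA). The HLA genes among these lie in the region described here and were scored on the primary chromosome only. Their lack of peaks thus decides little about the cell label. An ERG-library peak stood 1.55 kb from CIITA.

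The promoter sequences of 6 genes are shown as examples with and without a peak, and were picked for that. PRRC2A and BAG6 carried peaks of both libraries, CSNK2B and RPS18 one of the ERG library on the primary chromosome, and HLA-B and HLA-C none. Each runs 5′ to 3′ on the gene's own strand, from 250 bases before to 50 bases after the start site, from RefSeq on GRCh38.p14, whose chromosome coordinates are those of hg38. Capitals mark the letters CCGGAAG, a strong form of the core that ETS-family factors such as ERG recognise, and CCAAT, the box bound by NF-Y, on either strand.
PRRC2A (chr6:31620465-31620764, plus strand): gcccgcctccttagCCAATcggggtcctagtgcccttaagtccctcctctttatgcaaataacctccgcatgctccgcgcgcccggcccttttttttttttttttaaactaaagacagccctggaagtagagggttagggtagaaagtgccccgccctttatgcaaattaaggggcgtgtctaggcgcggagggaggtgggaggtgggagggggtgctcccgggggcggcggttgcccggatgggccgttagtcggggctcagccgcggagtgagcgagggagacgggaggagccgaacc
BAG6 (chr6:31652341-31652640, minus strand): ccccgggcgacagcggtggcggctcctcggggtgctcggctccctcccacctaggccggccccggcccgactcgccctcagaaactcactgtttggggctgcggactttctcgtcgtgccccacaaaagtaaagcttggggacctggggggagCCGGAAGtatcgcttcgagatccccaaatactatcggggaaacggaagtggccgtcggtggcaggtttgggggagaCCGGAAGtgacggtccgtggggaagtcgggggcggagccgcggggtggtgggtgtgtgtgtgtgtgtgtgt
CSNK2B (chr6:31665830-31666129, plus strand): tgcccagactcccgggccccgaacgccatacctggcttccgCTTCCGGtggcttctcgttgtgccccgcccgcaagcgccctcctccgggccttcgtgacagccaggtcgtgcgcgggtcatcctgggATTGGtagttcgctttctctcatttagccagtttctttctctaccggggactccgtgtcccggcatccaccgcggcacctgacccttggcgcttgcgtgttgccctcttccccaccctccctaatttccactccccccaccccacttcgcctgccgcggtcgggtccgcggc
RPS18 (chr6:33271825-33272124, plus strand): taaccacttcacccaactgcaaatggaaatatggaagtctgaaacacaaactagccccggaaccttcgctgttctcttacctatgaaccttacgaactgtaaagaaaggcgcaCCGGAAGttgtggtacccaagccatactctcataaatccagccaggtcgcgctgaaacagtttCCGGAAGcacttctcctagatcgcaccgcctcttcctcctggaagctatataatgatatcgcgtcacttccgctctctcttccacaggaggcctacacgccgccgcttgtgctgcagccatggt
HLA-B (chr6:31357130-31357429, minus strand): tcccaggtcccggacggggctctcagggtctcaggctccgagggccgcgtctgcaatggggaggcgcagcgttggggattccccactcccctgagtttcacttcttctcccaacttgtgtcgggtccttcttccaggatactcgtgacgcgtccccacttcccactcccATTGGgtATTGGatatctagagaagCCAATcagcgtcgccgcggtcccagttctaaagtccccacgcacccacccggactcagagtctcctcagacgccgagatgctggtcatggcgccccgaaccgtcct
HLA-C (chr6:31272043-31272342, minus strand): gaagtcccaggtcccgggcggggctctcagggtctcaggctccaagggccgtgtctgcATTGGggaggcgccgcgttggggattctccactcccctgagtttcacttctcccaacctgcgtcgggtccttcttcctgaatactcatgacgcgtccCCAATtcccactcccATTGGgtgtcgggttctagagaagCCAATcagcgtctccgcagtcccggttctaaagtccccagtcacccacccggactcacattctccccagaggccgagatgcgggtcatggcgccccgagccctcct
BAG6 and RPS18 each held CCGGAAG at 2 places and CSNK2B at 1, whereas the windows of PRRC2A, HLA-B and HLA-C held none. CCAAT stood at 1 place each in PRRC2A and CSNK2B, at 3 in HLA-B and at 4 in HLA-C. The ERG-library peak covered all 300 bases of the BAG6 window, 118 of PRRC2A, 97 of CSNK2B and 52 of RPS18. A match is a run of letters and not a measured binding site. Windows were given for 150 of the 167 protein-coding genes that lie wholly in the region. Over all 268 windows of genes of any kind in the region, CCGGAAG stood in 11.6% (8.0 to 16.0), against 10.3% of all 35116 windows of the genome. Among the 34 windows of the region that overlapped an ERG-library peak it stood in 10, which is 29.4% (15.1 to 47.5), and among the 234 that did not in 8.97% (5.64 to 13.4). The same split over the whole genome gave 23.6% of the 9944 windows with an ERG-library peak, which lies inside the interval of the region's value. CCAAT did not follow the peaks in this way, and stood in 35.3% of the region's windows that overlapped an ERG-library peak and 41.0% of those that did not. The GC box letters GGGCGG stood in 64.7% and 42.7% of the same windows, against 73.7% of all windows of the genome with an ERG-library peak. All windows of the genome held CCAAT in 34.6% and GGGCGG in 45.0%. Of the 3 windows of the region that overlapped a Vector-library peak, CCGGAAG stood in 1. The split over the genome was not made for that library. The 34 windows of the region with an ERG-library peak belong to 27 genes. Both strands were searched, matches of different motifs were counted without regard to overlap, and some windows overlap one another.

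On the primary chromosome sequence, the region held few peaks for its number of genes, in either library. The 33 ERG-library peaks came to 6.73 per Mb, and the 5 Vector-library peaks to 1.02 per Mb. The stretch of equal length below the region had 21.4 ERG-library and 9.39 Vector-library peaks per Mb, and the stretch above it 14.1 ERG-library and 7.35 Vector-library peaks per Mb. Protein-coding genes were denser inside, at 34.1 per Mb, than in the lower stretch with 21.0 and the upper one with 14.3. A gene counted as having a gene-end peak when a peak lay within 1 kb of either end of its record. This held for 30 of the region's 167 genes in the ERG library, 18.0% (12.5 to 24.6), where 45.8% of all 20037 protein-coding genes had one. In the Vector library it held for 6 of 167, 3.59% (1.33 to 7.66), where 30.5% of all genes had one. In the lower stretch the shares were 64.1% in the ERG library, against 37.9% in the Vector library, and in the upper one 61.4% in the ERG library, against 41.4% in the Vector library. Chromosome 19, which is also dense in genes, had 51.9% in the ERG library, against 31.8% in the Vector library. These counts leave out 204 ERG-library and 26 Vector-library peaks on 7 alternate copies. With the copies laid over the region, as described below, 29.9% of its genes had an ERG-library site and 13.2% a Vector-library site. The part of reads assigned to copies in the low primary counts was not tested.

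**Figure D1:**
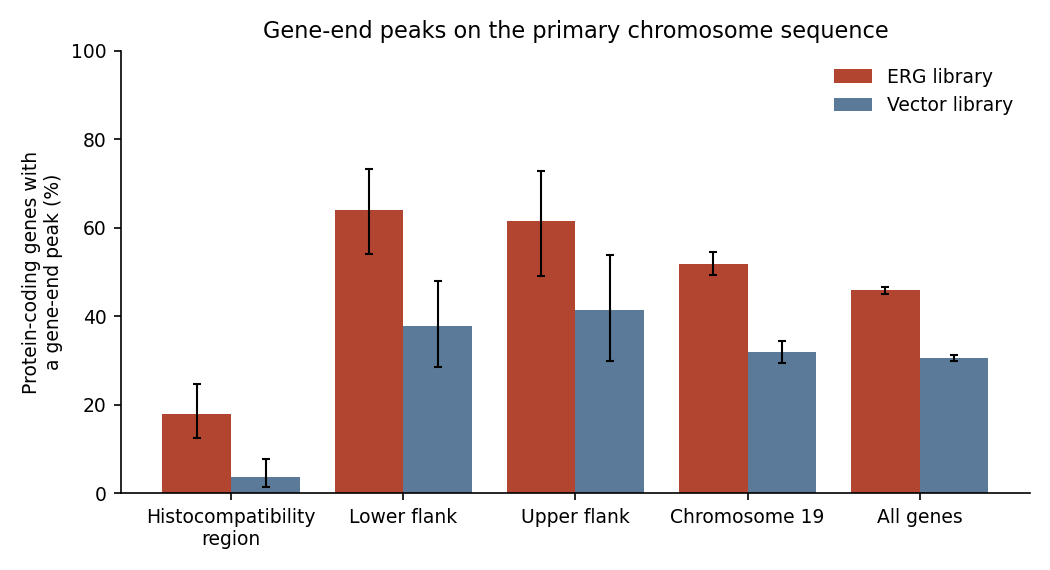
Share of protein-coding genes (percent) with a peak within 1 kb of a gene end on the primary chromosome sequence, for the histocompatibility region, its flanks of equal length, chromosome 19 and all genes, with the ERG library in red and the Vector library in blue. Bars have exact 95% binomial intervals for counting error. The region stands at 18.0% in the ERG library, against 3.59% in the Vector library, below the other 4 sets in the same library.

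On the primary chromosome, gene-end peaks of both libraries were found at 4 genes (TRIM27, PRRC2A, BAG6 and APOM). Those of the ERG library alone were found at 26 genes and those of the Vector library alone at 2 (PBX2 and GPSM3), which left 135 with none. As background, 30.2% of all protein-coding genes had one in both libraries, 15.6% had only one of the ERG library and 0.354% only one of the Vector library. The 26 genes are 15.6% of the region's 167, while genes with peaks of both libraries were 2.40% against 30.2% of all genes. The 26 rest on the length of the lists. With the ERG list shortened to as many top-scoring peaks as the Vector list holds they were 7, 4.19% of the region's genes against 6.15% of all genes, and with the upper 50% of each list by score 10, 5.99% against 16.2%. Of the 33 ERG-library peaks, 23 lay at a protein-coding gene end, 69.7% (51.3 to 84.4), against 44.6% of the ERG-library peaks elsewhere on the chromosomes. Of the other 10, 7 lay farther inside a protein-coding gene, 2 at the end of noncoding genes and 1 between genes. Of the 5 Vector-library peaks, 4 lay at a gene end and 1 inside BRD2.

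On the primary chromosome, the antigen-presenting genes described here had no peak at their ends in either library. This held for the classical class I genes HLA-B and HLA-C, for 5 others of class I type (HLA-E, HLA-F, HLA-G, MICA and MICB) and for 13 class II genes. Distances and gene-end peaks, here and in the next paragraphs up to the olfactory receptor genes, count peaks on primary chromosome sequences only. The nearest ERG-library peak stood 230.2 kb from HLA-B and 315 kb from HLA-C. The nearest Vector-library peak stood 264 kb from HLA-B and 349 kb from HLA-C. Among these class I genes HLA-E came closest to an ERG-library peak, at 62.2 kb in the ERG library, against 1127 kb in the Vector library. Among class II genes HLA-DMA, which helps load peptides, came closest, at 15.5 kb in the ERG library, against 16.9 kb in the Vector library, and the nearest peaks are those of the neighbouring gene BRD2. HLA-DRA, HLA-DRB1, HLA-DRB5, HLA-DQA1, HLA-DQB1, HLA-DQA2, HLA-DQB2, HLA-DPA1, HLA-DPB1, HLA-DMB, HLA-DOA and HLA-DOB stood 27.6 to 379 kb from an ERG-library peak and 28.98 to 380.2 kb from a Vector-library peak. Several of these genes resemble one another closely and differ between haplotypes, and how the authors' mapping placed reads that match several sequences is not given in the sources used. Its part in these values was not tested. Copy peaks placed by spacing, as described below, fell nearer to some of these genes. A site with 14 ERG-library fragments was placed at 31398484 to 31399117, and MICA begins at 31400711. Another, with 15 to 26 fragments on 5 copies, was placed at 30515693 to 30518168, and HLA-E ends at 30494194. A site with 18 to 51 fragments on 3 copies was placed at 31199818 to 31201950, and HLA-C begins at 31268749.

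Of the 5 genes that cut, carry and load peptides, TAPBP alone had gene-end peaks. It encodes tapasin, which holds class I proteins at the peptide transporter. The ERG library had 3 peaks at its ends, from chr6:33298422 to chr6:33314388, with 36, 20 and 21 fragments at the summit. The Vector library had none there on the primary chromosome. The peaks with 36 and 20 fragments lay at the end of lower position and inside the overlapping gene RGL2. The site of the 36-fragment peak lay near a start site of RGL2. The peak with 21 fragments lay at the other end, near a start site of TAPBP. TAP1 and TAP2, the transporter's subunits, and PSMB8 and PSMB9, subunits of the immunoproteasome, had none in either library and lay 109 to 129.9 kb from the nearest ERG-library peak and 110.2 to 131 kb from the nearest Vector-library peak. Of 18 genes for regulators and partners of these proteins on other chromosomes or elsewhere on chromosome 6, 10 carried gene-end peaks of both libraries, 5 carried one of the ERG library alone and 3 carried none. B2M, the class I partner, had 38 fragments at its summit in the ERG library, against 16 in the Vector library. NLRC5, the activator of class I genes, had 20 fragments in the ERG library and no gene-end peak in the Vector library. RFX5, a subunit of the RFX complex that sits on class I and class II promoters, had 86 fragments in the ERG library and no gene-end peak in the Vector library. RFXANK, another subunit, had 220 fragments in the ERG library, against 104 in the Vector library. NFYC, a subunit of the CCAAT-binding factor, had 224 fragments in the ERG library, against 112 in the Vector library. CIITA, the activator of class II genes, CD74, the class II invariant chain, and ERAP2, a peptide-trimming enzyme, lacked gene-end peaks in both libraries.

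In class III, the complement genes C2, CFB, C4A and C4B lacked gene-end peaks in both libraries. Of the 7 genes of the tumour necrosis factor cluster, AIF1 alone had one, with 15 fragments in the ERG library and none in the Vector library. TNF and LTA had none, and the closest ERG-library peak lay 9.02 kb from TNF. Of the 3 genes for heat shock proteins of the HSP70 family, HSPA1A had one, with 10 fragments in the ERG library and none in the Vector library. HSPA1A and HSPA1B are near-identical copies, so reads may have been split between them.

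On the primary chromosome, among 6 genes of protein synthesis 4 carried a peak of the ERG library and none carried one of the Vector library. VARS1, a valyl-tRNA synthetase, had 36 fragments. RPS18, a protein of the small ribosomal subunit, had 24, MRPS18B of the mitochondrial ribosome 23 and the GTP-binding protein gene GNL1 19 in the ERG library. Among 12 genes of RNA processing and transcription, PRRC2A, an RNA-binding protein, had a peak in both libraries, and PPP1R10, which encodes a regulatory subunit of protein phosphatase 1, and DXO, an RNA decapping enzyme, had one in the ERG library alone with 23 and 19 fragments. Among 17 genes for chromatin proteins and transcription factors, TRIM27, a ubiquitin ligase, had one in both libraries. BRD2, a reader of acetylated histones, RXRB, a nuclear receptor, ATF6B, a factor of the unfolded protein response, ZBTB22 and TRIM39 had one in the ERG library alone, with 39, 26, 22, 21 and 15 fragments. PBX2, a homeobox factor, had one in the Vector library alone. With the copies laid over the region, as described below, more of these genes had a Vector-library site. They were 3 of the 6, 3 of the 12 and 6 of the 17.

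Of 24 other class III genes, 2 had a peak in both libraries (BAG6, a chaperone, and APOM, an apolipoprotein, which share it) and 7 in the ERG library alone. CLIC1, a chloride channel protein, had 37 fragments in the ERG library, and CSNK2B, the regulatory subunit of casein kinase 2, and its neighbour GPANK1 had 33 at a peak they share. Both of the CLIC1 peaks lay on the highest backgrounds of the region, 12.5 and 12.4 fragments, and so had low folds of 2.29 and 2.83. Of 18 genes of cell structure and signalling, 4 had one in the ERG library alone, with 26 fragments at SLC39A7, 24 at VPS52, 17 at the tubulin gene TUBB and 17 at PPP1R11. Some peaks count in more than 1 list. SLC39A7 shares its peak with RXRB, VPS52 with RPS18, MRPS18B with PPP1R10 and ZBTB22 with TAPBP. None of the 13 olfactory receptor genes that could be matched had one in either library. With the copies laid over the region, a Vector-library site stood at 5 of the 24 other class III genes. It stood at 3 of the 18 genes of cell structure and signalling.

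The region's shared peaks were stronger in the ERG library by about as much as shared peaks elsewhere. At chr6:31620647-31621399, PRRC2A had 45 fragments at its summit in the ERG library, against 19 in the Vector library, a ratio of 2.37 (1.36 to 4.29). At chr6:31652272-31652955, BAG6 and APOM shared a peak with 32 fragments in the ERG library, against 17 in the Vector library, a ratio of 1.88 (1.01 to 3.61). At TRIM27 (chr6:28923253-28923936) there were 16 in the ERG library, against 9 in the Vector library, a ratio of 1.78 (0.740 to 4.56). The peak inside BRD2 (chr6:32969838-32970404) had 36 in the ERG library, against 13 in the Vector library, the highest ratio of the 4, 2.77 (1.43 to 5.69). Their summed ratio was 2.22 (1.62 to 3.09). On the alternate copies 27 pairs of peaks had a median ratio of 2.07, which is also the median of the 8040 shared pairs outside the region and its copies. Of all 31 pairs, 29 lay above the relative depth of 1.44. The copy pairs ran from 1.00, with 11 fragments in each library near the placed position of RING1, to 4.00 (1.97 to 8.97), with 40 fragments in the ERG library, against 10 in the Vector library near that of the small nucleolar RNA host gene SNHG32.

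**Figure D2:**
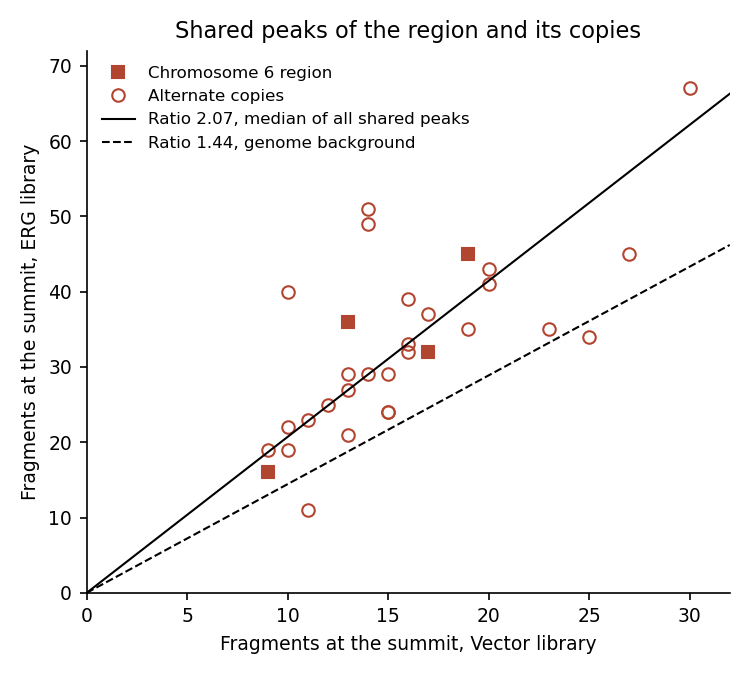
Fragments at the summit of each shared peak of the histocompatibility region (filled squares) and the alternate copies (open circles), with the ERG library on the vertical axis and the Vector library on the horizontal one. The solid line marks the ratio 2.07, the median of all shared peaks, and the dashed line the relative depth of 1.44, above which 29 of the 31 pairs lie.

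Most ERG-library peaks of the region and its copies had no Vector-library counterpart, while 31 of the 33 Vector-library peaks had one in the full ERG list. Sharing meant an overlap of at least 1 bp between peaks of both lists on the same sequence. Unshared were 209 of the 240 ERG-library peaks, 87.1% (82.2 to 91.1), against 58.9% of all ERG-library peaks. The primary chromosome had 29 of 33, 87.9% (71.8 to 96.6), and the alternate copies 180 of 207, 87.0% (81.6 to 91.2). On the alternate sequences of other chromosomes the share was 71.2% (66.4 to 75.7) of 386 peaks. In the Vector library 2 of 33 peaks were unshared, 6.06% (0.743 to 20.2), against 8.97% of all Vector-library peaks. The low share of unshared Vector-library peaks depended on the settings. When an overlap of 50% of both peaks was asked for, 50% on the copies and 40% of the 5 in the region were unshared, and with the ERG list shortened to equal length 39.3% on the copies and 60% in the region. For the ERG library these settings gave 93.2% and 63.0% on the copies, and 90.9% and 77.8% in the region.

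The peaks were weaker than the average of those elsewhere, as were peaks on the alternate sequences of other chromosomes. The ERG-library peaks had a median of 21 fragments at the summit and ranged from 9 to 67, against a median of 37 for all peaks elsewhere. The Vector-library peaks had a median of 14, ranging from 9 to 30, against 27 elsewhere. The background under them was lower as well, with a median of 3.55 fragments in the ERG library against 7.83 elsewhere, and 2.07 in the Vector library against 4.81 elsewhere. On the alternate sequences of other chromosomes the median was 25 fragments over a background of 4.16 in the ERG library, and 16 fragments over 2.44 in the Vector library, nearer to the values here. The fold over background was thus not lower, with medians of 4.53 against 4.21 elsewhere in the ERG library and 4.90 against 4.61 elsewhere in the Vector library. The part of reads that match several copies in these levels was not tested.

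Compared within bins of equal strength, the shared share was lower than elsewhere in each of the 5 bins that held members; the counting interval of each single bin includes the share elsewhere. Of the 81 ERG-library peaks with 20 to 29 fragments, 10 were shared, 12.3% (6.08 to 21.5), against 18.8% elsewhere. Of the 56 with 30 to 49 fragments, 15 were shared, 26.8% (15.8 to 40.3), against 37.2% elsewhere. With 15 to 19 fragments 3 of 56 were shared, 5.36% against 10.4% elsewhere, and under 15 fragments 1 of 44, 2.27% against 6.35% elsewhere. With 50 to 99 fragments 2 of 3 were shared, 66.7% against 69.9% elsewhere, and no member reached 100. If every peak had been shared as often as peaks of its bin elsewhere, 19.5% of the 240 would have been, where 12.9% (8.95 to 17.8) were, an interval that lies below it. Peaks on several copies can stand for the same site, so intervals over peaks of the copies are narrower than independent peaks would give.

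**Figure D3:**
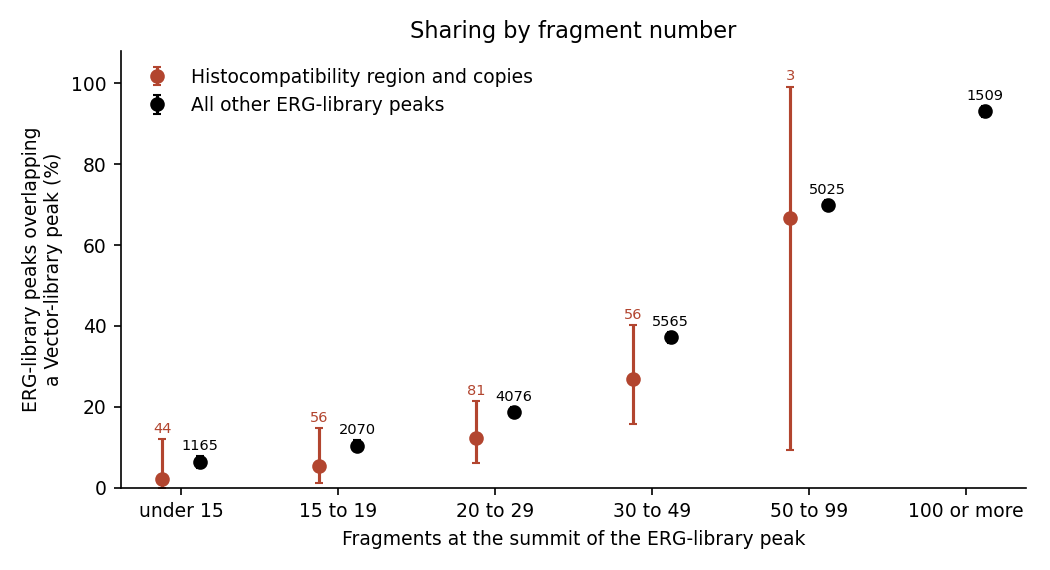
Share of ERG-library peaks (percent) that overlap a Vector-library peak, by fragments at the ERG-library summit, for the histocompatibility peaks and for all other peaks, with exact 95% binomial intervals for counting error. Peaks of the region and its copies lie below the others in each bin that holds any, as at 20 to 29 fragments with 12.3% against 18.8%.

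The peaks of the alternate copies were spread unevenly over the sequences. Of the 207 ERG-library peaks on copies, 204 lay on the 7 sequences named GL000250v2 to GL000256v2, from 10 on GL000250v2 to 41 on GL000251v2 with a median of 29. The Vector library had 26 peaks there, from 1 on GL000250v2 to 6 on GL000251v2. Every one of the 7 copies and the primary chromosome held more ERG-library than Vector-library peaks. The ERG list is also longer over the whole genome, at 19671 peaks against 9161, and the copies are not replicates of one another. Another 3 ERG-library and 2 Vector-library peaks lay on KI270797v1 and KI270798v1, which are members by name and were not placed along the region. These peaks included the strongest of the set in either library, on KI270797v1 at 26307 to 27431 in the ERG library with 67 fragments, where the Vector library had 30.

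**Figure D4:**
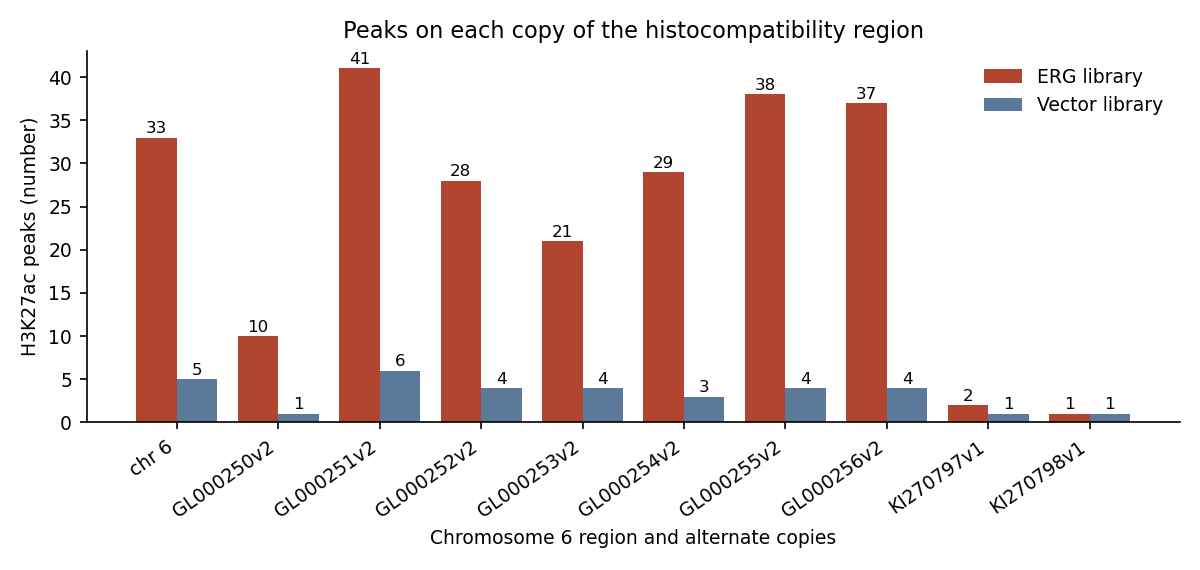
Number of H3K27ac peaks on the histocompatibility region of chromosome 6 and on each chromosome 6 alternate sequence with a peak, with the ERG library in red and the Vector library in blue. KI270797v1 and KI270798v1 are included by name and were not placed along the region. The ERG library has from 10 to 41 peaks on the 7 sequences of the GL series and the Vector library from 1 to 6.

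Peaks on the copies have no gene annotation in the files. The order and spacing of the ERG-library summits was therefore laid along that of the primary chromosome, sequence by sequence, to give each copy peak an approximate place there. This rests on distances between peaks and not on an alignment of sequence. Matches were chosen for small changes of spacing, so alike spacing among matched peaks does not check the placing. Some matches had unlike spacing. On GL000253v2 peaks starting at 2925138 and 2926033 were matched to AIF1 and PRRC2A, whose primary peaks start at 31615278 and 31620647. Examples of alike spacing follow. The summits at PRRC2A, BAG6 and CSNK2B stood 31.6 and 13.1 kb apart on the primary chromosome, and the same run of 3 peaks returned on 6 copies at 31.4 to 32.4 kb and 12.4 to 13.97 kb. The summits near the tRNA gene TRL-CAA1-1 and at TRIM27 stood 27.6 kb apart on the primary chromosome and 27.7 to 27.9 kb apart on 4 copies. Of the 204 ERG-library peaks, 122 were matched to a primary peak in this way, 43 were placed between matches and 39 could not be placed. Of the 26 Vector-library peaks 25 were placed. The offsets on either side of the 43 differed by a median of 389 bp and by up to 2.72 kb, over 1 kb for 7 of them, so their places are uncertain by at least that much. For the 122 matched peaks no such range was worked out.

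Placed summits within 1 kb of each other were joined into 52 sites, of which 50 held an ERG-library peak and 19 a Vector-library peak. Both libraries had a peak at 17 of the 50 ERG-library sites, 34.0% (21.2 to 48.8), and 2 sites had the Vector library alone. This share counts a Vector-library peak on any of the 8 sequences, so it is larger by construction than the share of single peaks. An ERG-library peak on the primary chromosome stood at 31 of the 50 sites, and 19 were seen on copies alone. The copies are near-identical in much of their sequence, so peaks at a site are not replicates of one another and may rest on the same reads. A Vector-library peak stood at 11 of the 20 ERG-library sites on 5 or more sequences and at 0 of the 8 on 1 sequence. Sites on more sequences have more chances to hold a Vector-library peak, so this contrast is partly built in.

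**Figure D5:**
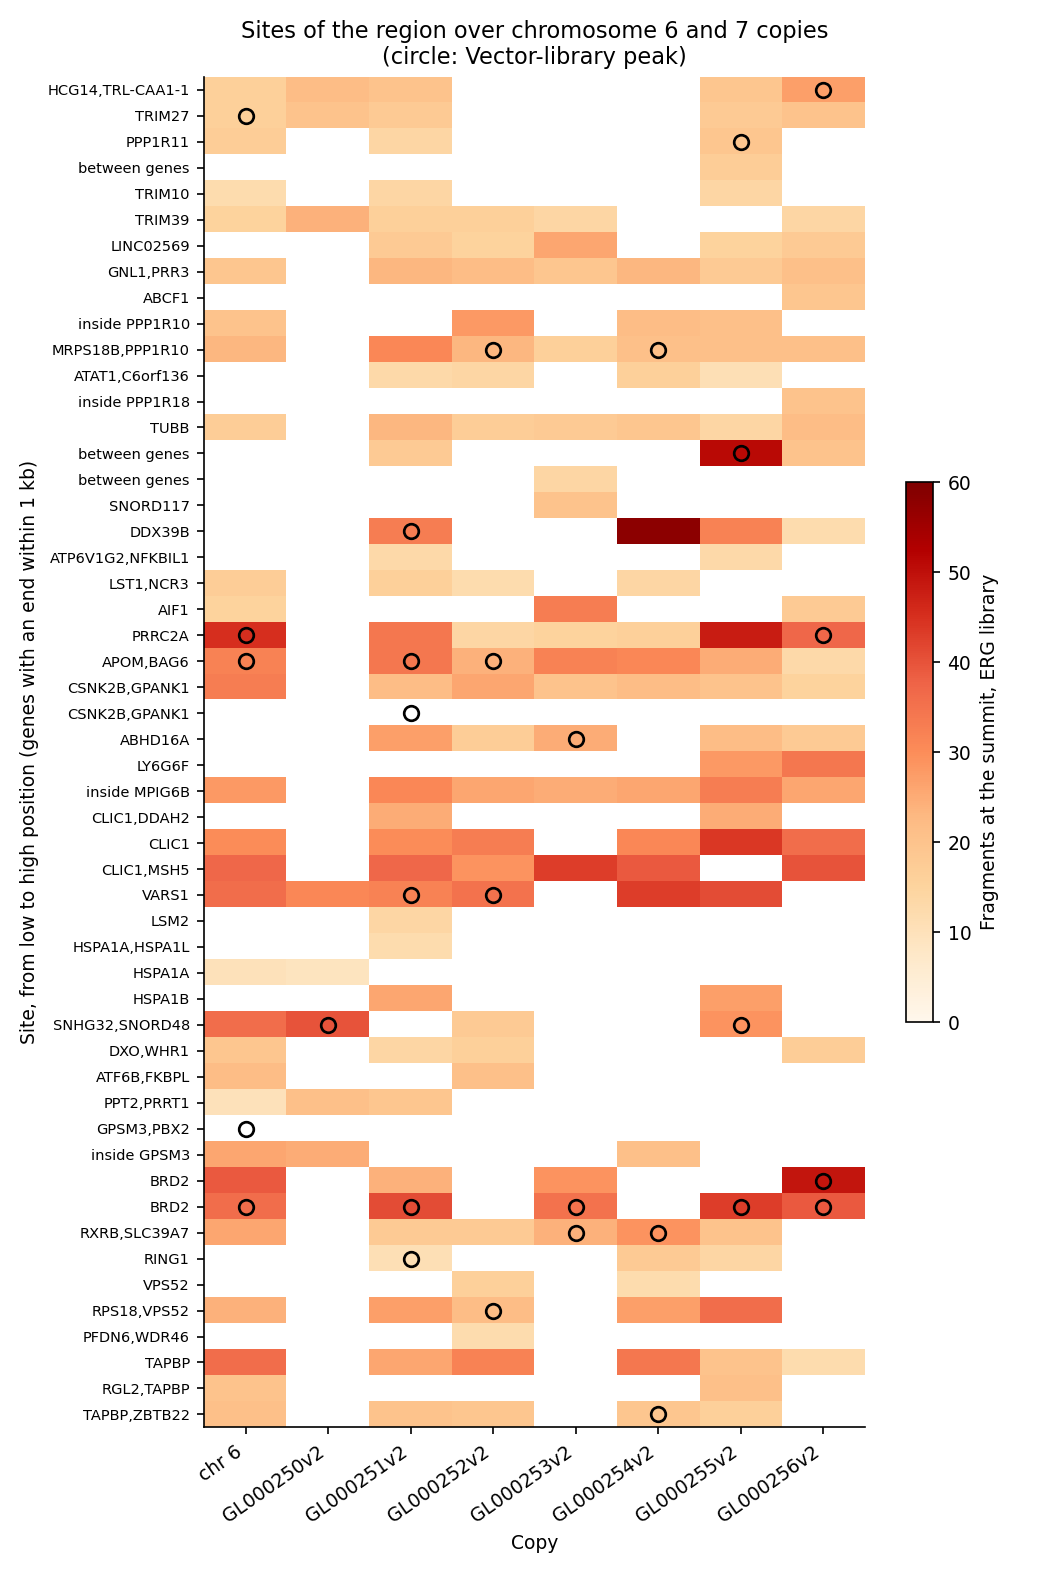
Fragments at the summit of the strongest placed ERG-library peak, by site in order along the region (rows) and by sequence (columns). Dark cells are strong peaks and empty cells hold no ERG-library peak. Open circles mark cells with a Vector-library peak and show no level. Sites such as PRRC2A, BAG6 and CSNK2B fill 7 of the 8 columns in the ERG library. Circles stand in 5 columns at most, at BRD2.

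Laying the copies over the primary chromosome widened the list of acetylated genes without adding any of the class I and class II genes described above. Of the 167 genes, 50 had an ERG-library site within 1 kb of a gene end, 29.9%, and 22 a Vector-library site, 13.2%. Of these, 20 genes had a site with both libraries, 30 with the ERG library alone and 2 with the Vector library alone, counting all sites of a gene as one. Among the 20 were 13 whose gene-end peak on the primary chromosome was of the ERG library alone, and these included BRD2, VARS1, RPS18, RXRB and TAPBP. None of the class I, class II, complement and olfactory genes described above had a placed site at its ends in either library. The 39 ERG-library copy peaks that could not be placed are not counted. No primary ERG-library peak lay between 28923936 and 30061358, between 30721236 and 31587358 or between 32192699 and 32968597. The olfactory genes, most class II genes and HLA-B, HLA-C, HLA-F, HLA-G, MICA and MICB lie there. Copy peaks there could be placed only where distant flanking offsets differed by at most 3 kb, so a missing site decides little for these genes. Copy peaks that could not be placed had possible places of 31928464 to 32027795 on GL000256v2 and 31993781 to 32055245 on GL000255v2. These ranges take in ends of C2, CFB, C4A and C4B, so a missing site decides little there too.

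BRD2 had Vector-library peaks on more sequences than any other gene. At the wider site, which begins inside the gene within 1 kb of its end, the ERG library had peaks on 5 sequences with 31 to 43 fragments, and the Vector library on 5 with up to 20 fragments. At the site over the gene end itself the ERG library had peaks on 4 sequences with 24 to 49 fragments, and the Vector library on 1, GL000256v2, with 14. VARS1 had 31 to 43 fragments on 6 sequences in the ERG library, and 16 and 23 on 2 in the Vector library. BAG6 and APOM had 13 to 34 fragments on 7 sequences in the ERG library, and 15, 17 and 25 on 3 in the Vector library. RPS18 and VPS52 had 22 to 36 fragments on 5 sequences in the ERG library, and 10 on 1 in the Vector library. At VARS1, RPS18 and VPS52 the Vector library thus had a peak on a copy and none on the primary chromosome.

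Other sites stayed with the ERG library on every sequence. TUBB had 14 to 23 fragments on 7 sequences in the ERG library and no Vector-library peak on any. GNL1 and PRR3 had 15 to 23 on 7 in the ERG library, again with none in the Vector library. The site inside MPIG6B, which encodes a receptor of platelets and megakaryocytes, had 25 to 33 fragments on 7 sequences in the ERG library and none in the Vector library. The CLIC1 sites had 30 to 44 and 29 to 43 fragments on 6 sequences each in the ERG library, and no Vector-library peak. A count of 0 peaks in the shallower Vector library does not show that acetylation was absent there.

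Of the 19 sites seen on copies alone, 13 lay at the placed end of a protein-coding gene. DDX39B, an RNA helicase of messenger RNA export, had ERG-library peaks on 4 copies with 12, 32, 33 and 58 fragments, and a Vector-library peak with 16 on 1 of them. Their places are uncertain by 0.581 to 2.72 kb. ABHD16A, a lipid hydrolase, had 17 to 27 fragments on 5 copies in the ERG library, and 12 on 1 in the Vector library. RING1, a subunit of Polycomb complexes, had 11 to 18 fragments on 3 copies in the ERG library, and 11 on 1 in the Vector library. HSPA1B had 26 and 27 fragments on 2 copies in the ERG library and none in the Vector library, and a separate site at HSPA1A and HSPA1L had 12 fragments on GL000251v2 in the ERG library. The tumour necrosis factor cluster came to 4 of 7 genes with an ERG-library site (NFKBIL1, LST1, NCR3 and AIF1) and 0 with a Vector-library site, and TNF, LTA and LTB were not among them. A site that falls between genes, placed at 31199818 to 31201950, had 18, 20 and 51 fragments on 3 copies in the ERG library and 14 on 1 in the Vector library. Its strongest pair, on GL000255v2, had the second-highest ratio of all, 3.64 (1.99 to 7.13), with 51 fragments in the ERG library, against 14 in the Vector library.

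The Vector library alone had a peak at 2 places. The peak at the ends of PBX2 and GPSM3 on the primary chromosome, at 32189571 to 32189975, had 14 fragments, and the nearest ERG-library peak stood 1.73 kb from PBX2, inside GPSM3, with 26 fragments. The other lay on GL000251v2 at 3143550 to 3144177 with 14 fragments and was placed at CSNK2B and GPANK1. The ERG library had a peak of 22 fragments at 3142447 to 3142763 of the same copy, which did not overlap it. Both thus lay near an ERG-library peak.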

How the data were processed

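H3K27ac chromatin immunoprecipitation was sequenced in 1 library of ERG-transduced and 1 of vector-transduced F36P cells. Bowtie2, MACS2, deepTools and the hg38 build are named in the submitters' processing notes, which give neither version nor setting here. The authors called peaks in each library by itself, and 1 peak list per library was deposited. Its columns hold the authors' score, their fold over background at the summit and their −log10 p-value and q-value. At its lowest the deposited −log10 q-value stood at 1.31 (ERG library) and 1.32 (Vector library), a threshold of 0.05. Input libraries and the treatment of reads with several matches are not given in the sources used here.

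Fragments and background at each summit were solved from the deposited fold and −log10 p-value by the peak caller's formulas, and came out whole for 99.9% of peaks in each library with a relative error under 0.0001. Python 3.11.15, numpy 2.4.6, pandas 2.3.3, scipy 1.17.1 and matplotlib 3.10.9 were used. Shares have exact Clopper-Pearson 95% intervals and ratios of fragments exact conditional ones. The 150 genes of 14 hand-made lists were taken from general knowledge, and 149 matched the RefSeq table of GRCh38.p14. The members and lists were chosen with earlier results of these data known. Where strand was given for a gene, its start site had been planned as the window. Both gene ends were used for every gene, since not every gene of the region had a promoter window. Genes that cross a bound, such as KIFC1, were left out of the region after its peak was found to lie outside. Of each list, genes with a gene-end peak in 1 library alone were named first, then those at the strongest peaks, and the class I, class II and antigen processing genes, of which 1 is not reported here. Other genes, such as DDX39B and MPIG6B, were chosen after their values were seen.

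Copy peaks were placed by chaining summits with the primary ones in order. A change of offset between neighbouring matches cost 0.6 per factor of 10 above 100 bp and could reach 150 kb. Peaks between matches were placed where the flanking offsets differed by at most 3 kb. These settings, the joining distance and the labelling by peak extent were set after the data were seen. The chaining and the fragment calculation were tried on simulated data, with the outcome not given here. The simulated copies were made from the primary summits of these data, and the placing of peaks between matches was not simulated.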

Additional observations from a re-analysis of the deposited data

How the results depend on the processing

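No paired analysis was possible because each group held 1 library. With 1 library a group nothing here measures spread between samples, and the depth of the Vector library limits what its missing peaks can show. Of 63 values recomputed under alternatives, 49 stayed within their counting interval or within 1.5 times of a count.

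With a reciprocal overlap of 50%, 93.2% of ERG-library and 50% of Vector-library peaks on the alternate copies were unshared, and 40% of Vector-library peaks in the region. When each list was cut to its upper 50% by score, 100% of ERG-library peaks in the region were unshared, and on the copies 91.5% of ERG-library and 0% of Vector-library peaks. That setting left no Vector-library peak in the region, so it gave no share or ratio there. When the ERG list was shortened to as many top-scoring peaks as the Vector list, 63.0% of ERG-library and 39.3% of Vector-library peaks on the copies were unshared, and 60% of Vector-library peaks in the region. After thinning of the ERG library to the background level of the Vector library, 86.2% of ERG-library and 20% of Vector-library peaks in the region were unshared. A gene-end window of 2.5 kb gave 7 genes with both libraries and 0 with the Vector library alone. The upper 50% of the lists gave 0 genes with both, 10 with the ERG library alone and 0 with the Vector library alone, and the shortened list gave 7 with the ERG library alone.

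Alternatives for the sites were chosen after seeing the data. Using matched peaks alone left 31 ERG-library sites, all of which stand at a primary peak by construction. Gene labels by summits, the labelling tried first, gave 43 genes with an ERG-library site, and an offset cost of 0.5, the value tried first, gave 49. Fewer peaks entering the list is the construction of the stricter settings. For the other changes the cause was not tested.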
